A study of Mus musculus with 6 samples.

Results

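The genes examined here are 10 members of the TNF superfamily measured in cultured mouse cortical astrocytes, namely the ligands Tnf, Tnfsf10, Tnfsf13b and Tnfsf9 and the receptors Tnfrsf1a, Tnfrsf1b, Fas, Tnfrsf10b, Tnfrsf12a and Tnfrsf11b. They were taken by gene name, and each matched 1 of the 55357 genes of the table. RNA was compared between 3 cultures transfected with a plasmid that expresses FLAG-tagged BRAF K499E from the CMV promoter (KE), harvested after 48 hours, and 3 cultures that were not transfected (NT, genotype labelled naive). The title and treatment of the NT samples say that they were not transfected, although their protocol text also describes the transfection. According to the methods, the astrocytes came from cortices of C57BL/6 mouse embryos, were shaken in culture before replating, and were kept in medium with HB-EGF. No culture that received an empty plasmid or BRAF WT is among these samples, so an effect of BRAF KE and an effect of plasmid transfection cannot be told apart in any result given here. The labels number the cultures 1 to 3 without saying that they came from separate animals, so the p-values measure only the spread between these samples.

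TNF superfamily ligands are trimeric proteins, most of them made at the cell membrane, that cluster their receptors on the target cell. Receptors with a death domain in the cytoplasm, such as Fas, TNF receptor 1 and the TRAIL receptor, can assemble a complex that activates caspases, and they can also signal to NF-κB. Many receptors without a death domain bind TRAF adaptors directly. In the brain, microglia are a main source of TNF, and astrocytes respond to it through TNF receptors.

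The targeted gene matched the labels, as Braf was 34933 to 40978 normalized counts in KE and 811 to 946 in NT. A normalized count is the number of reads of a gene divided by a factor that places the cultures on a common scale. The approximate depth lay between 24500000 and 34100000 reads, which makes 1 read worth 0.905 to 1.25 normalized counts, so the lowest value of any of the 10 genes, 19.9 for Tnfsf10 in NT replicate 3, rests on few reads. Markers of astrocytes were high in all 6 cultures. The sum of 10 such markers ranged from 194523 to 200354 in KE and from 142105 to 150693 in NT, and 7 of them were upregulated (25.3% of all tested genes were), 1, Gja1, was downregulated and 2 were not called, with a median log2FC of 0.40 over the 10. One of the 10, S100b, averaged only 22.2 over the 6 cultures. The sum of 20 microglia and macrophage markers was 7333 to 10248 in KE and 63881 to 80194 in NT, a mean 8.92-fold higher in NT, and all 20 were downregulated in KE with no marker at 0 in either group. In RNA from whole cultures, fewer microglia and less RNA per microglial cell cannot be told apart. Of 8 oligodendrocyte lineage markers, 7 were downregulated and 1 was too low to be tested, and their sum averaged 28919 in KE and 36111 in NT. Markers of other cells went both ways or were scarce. The sum of 8 neuron markers averaged 6848 in KE and 8985 in NT, with 1 marker upregulated, 2 downregulated and 3 not called. The sum of 8 mural and mesenchymal markers averaged 2778 in KE and 3564 in NT, although 3 were upregulated and 2 downregulated. That of 6 endothelial markers averaged 262 and 404, with 2 downregulated and 1 not called.

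All 10 genes passed the filter on low values, a mean of at least 10 normalized counts, and were tested with limma on log2(normalized count + 1). Of the 10, 6 were upregulated in BRAF KE–transfected astrocytes, 3 were downregulated and 1, Tnfsf9, was not called at an adjusted p-value of 0.05. Without NT replicate 3, which stood apart for several of these genes, the same 9 genes were called in the same directions. Over the 15280 tested genes 51.3% were called, 25.3% as upregulated and 26% as downregulated. The ranges of the KE and NT values were separate for 9 of the 10 and for 59.9% of all tested genes. The median log2FC of the 10 genes was 0.34, against 0.00 over all tested genes. The changes ran from -3.60 for Tnf to 3.35 for Tnfsf10, both ligands, and the receptors lay between them.

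**Figure D1:**
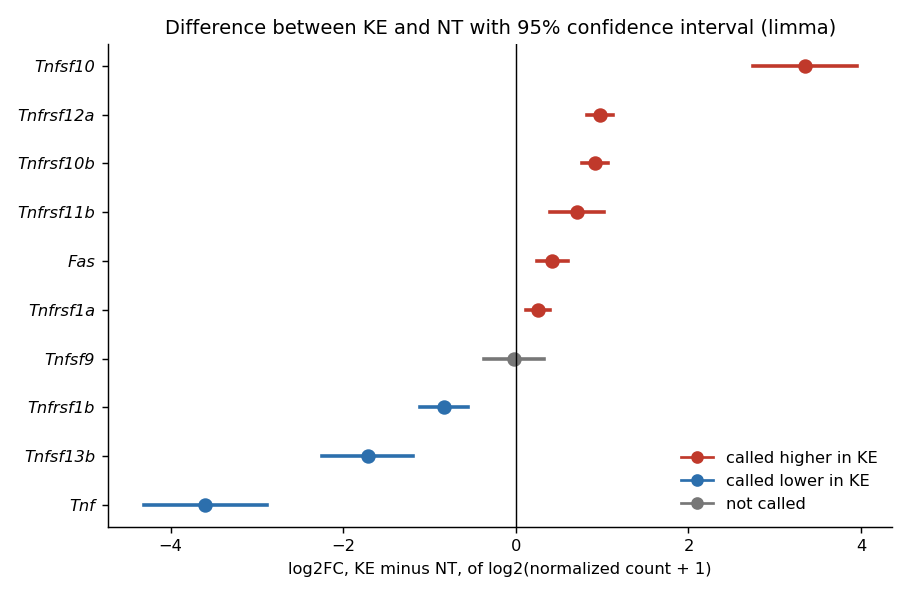
The log2FC of each of the 10 genes (KE minus NT, on the log2(normalized count + 1) scale, x axis) is plotted with its 95% confidence interval from limma, colored by call. Tnf lies at -3.60 and Tnfsf10 at 3.35, and the interval of Tnfsf9 includes 0.

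Tnf (ENSMUSG00000024401), the founding ligand of the family and a potent inflammatory cytokine, is found at 35418357 to 35420983 of chromosome 17 (GRCm39, minus strand). In KE replicates 1, 2 and 3 it had 54.2, 35.0 and 51.6 normalized counts, compared with 713, 852 and 305 in NT replicates 1, 2 and 3. Every KE culture was far below every NT culture, and among the NT cultures replicate 3 stood at 0.389 times the mean of the other two. KE averaged 46.9 ± 10.4 and NT 623 ± 284 (SD, n = 3 each), and the log2FC was -3.60 ± 0.32 (standard error), with a Benjamini-Hochberg adjusted p of 4.77e-06 in limma. Only 0.962% of tested genes had a larger absolute log2FC. Without NT replicate 3 the log2FC of Tnf was -4.05.

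Tnfsf10 (ENSMUSG00000039304) encodes TRAIL, a ligand that can induce apoptosis through its death domain receptor and that is known as an interferon-inducible gene. It lies on the plus strand of chromosome 3 from 27371033 to 27396576. In KE it was 304, 335 and 339.9, and in NT it was 29.6, 50.7 and 19.9. The KE cultures were close to each other and all of them exceeded every NT culture, in which the gene was low. KE averaged 326 ± 19.4 and NT 33.4 ± 15.8 (SD, n = 3 each), so that the log2FC of Tnfsf10 reached 3.35 ± 0.27 (standard error), with an adjusted p of 2.22e-06 in limma. It ranked 55 from the top among the 15280 tested genes by log2FC.

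Tnfsf13b (ENSMUSG00000031497), on the plus strand of chromosome 8 from 10056467 to 10089072, encodes BAFF, a survival factor for B cells that myeloid cells produce. It was low throughout, at 26.1, 25.1 and 32.8 in KE and 112, 106 and 69.2 in NT. As with Tnf, NT replicate 3 was the lowest of the NT cultures, but it was still above every KE culture. The log2FC was -1.72 ± 0.24 (standard error), with an adjusted p of 1.33e-04 in limma, for means of 28.0 ± 4.19 in KE and 95.9 ± 23.2 in NT (SD, n = 3 each).

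Tnfsf9 (ENSMUSG00000035678) encodes the ligand of the costimulatory receptor 4-1BB and lies on the plus strand of chromosome 17 from 57412298 to 57414769. Its values were 82.1, 83.8 and 83.3 in KE and 81.2, 80.6 and 91.8 in NT. The groups overlapped and the log2FC was -0.02, with a 95% confidence interval from -0.37 to 0.32 (adjusted p = 0.914 from limma). Of the exon bases of Tnfsf9, 14.4% are shared with the antisense transcript Gm11110, which averaged 15.8 in KE and 17.8 in NT. Tnfrsf9, which encodes 4-1BB itself, was not called either, with a log2FC of 0.14 and a 95% confidence interval from -0.28 to 0.55.

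**Figure D2:**
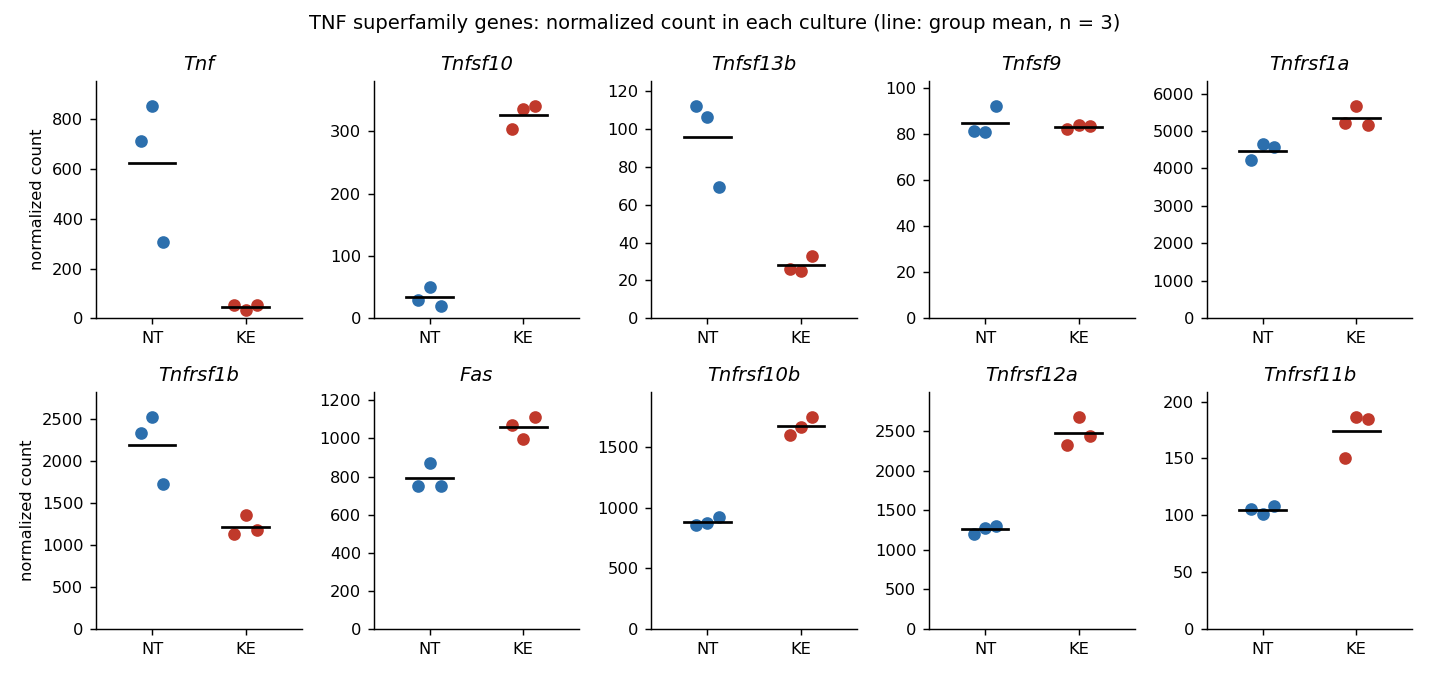
The normalized count (y axis, from 0) of each of the 10 genes is shown for the 3 NT and 3 KE cultures, with a line at the group mean. Tnf, Tnfsf13b and Tnfrsf1b have all their KE values below their NT values, 6 genes are higher, and the Tnfsf9 values overlap.

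The 2 receptors of TNF changed in opposite directions. Tnfrsf1a (ENSMUSG00000030341; plus strand of chromosome 6 from 125325566 to 125339632) encodes TNF receptor 1, which carries a death domain and is found on most cell types. It was 5212, 5657 and 5172 in KE and 4222, 4642 and 4572 in NT. The difference was the smallest of the 6 increases but exceeded the spread between cultures, with means of 5347 ± 269 and 4479 ± 225 (SD, n = 3 each) and a log2FC of 0.26 ± 0.06 (standard error, adjusted p of 0.00484 in limma). Tnfrsf1b (ENSMUSG00000028599; minus strand of chromosome 4 from 144938938 to 144973477) encodes TNF receptor 2, which has no death domain and is prominent on immune cells. Its values were 1124, 1354 and 1176 in KE and 2336, 2520.1 and 1722 in NT. All KE cultures were below all NT cultures, with a log2FC of -0.83 ± 0.13 (standard error, adjusted p of 2.48e-04 in limma) and means of 1218 ± 121 and 2193 ± 418 (SD, n = 3 each).

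Upregulation was found for the other 2 receptors with a death domain. Fas (ENSMUSG00000024778; plus strand of chromosome 19 from 34268001 to 34305173), the receptor of FasL, was 1071, 995 and 1112 in KE and 749.7, 872 and 750.1 in NT. The lowest KE culture was above the highest NT culture, and the log2FC was 0.42 ± 0.08 (standard error, adjusted p of 0.00149 in limma). Tnfrsf10b (ENSMUSG00000022074; plus strand of chromosome 14 from 70004916 to 70021860) encodes the receptor through which TRAIL signals in the mouse. It was 1605, 1665 and 1748 in KE and 859.6, 874 and 923 in NT, so the groups were well separated and each was tight. On average KE had 1673 ± 72.1 and NT 886 ± 33.3 (SD, n = 3 each), and the log2FC was 0.92 ± 0.07 (standard error, adjusted p of 9.64e-07 in limma). TRAIL and its receptor were thus both upregulated, whereas TNF was downregulated and TNF receptor 1 was slightly higher.

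Tnfrsf12a (ENSMUSG00000023905; minus strand of chromosome 17 from 23894416 to 23896468) encodes Fn14, a small receptor without a death domain that binds the ligand TWEAK and is induced by growth factors. Its normalized counts were 2323, 2676 and 2442 in KE and 1203, 1272 and 1299.7 in NT. It had the largest log2FC among the 6 receptors, 0.98 ± 0.07 (standard error, adjusted p of 7.81e-07 in limma), and the values of the groups were far apart. In Gencode vM39, however, all exon bases of Tnfrsf12a lie within exons of Hcfc1r1 on the opposite strand. Hcfc1r1 was 1785, 1907 and 1714 in KE and 954, 987 and 906 in NT, with a similar log2FC of 0.92. The libraries were made with a stranded kit, but the strand setting of the counting is not given in the sources used here, so how far the genes share reads was not tested. For Tnfrsf1a and Tnfrsf1b such overlap was 0.603% and 3.72% of exon bases, and for the remaining genes other than Tnfsf9 there was none.

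Tnfrsf11b (ENSMUSG00000063727; minus strand of chromosome 15 from 54114015 to 54142075) encodes osteoprotegerin, a secreted decoy receptor that binds RANKL and TRAIL. It was 150.0, 186 and 185 in KE and 106, 101 and 108 in NT. Every KE culture was higher, although replicate 1 lay apart from the other KE cultures, and the log2FC was 0.71 ± 0.14 (standard error, adjusted p of 0.00158 in limma).

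Levels of different genes were compared per kilobase of exon. In NT the order was Tnfrsf1a (1422 ± 71.4, SD, n = 3), Tnfrsf12a (640.3 ± 25.5), Tnfrsf1b (443 ± 84.4), Tnf (380.3 ± 174), Fas (341 ± 30.4), Tnfrsf10b (155 ± 5.84), Tnfsf9 (63.6 ± 4.74), Tnfrsf11b (34.9 ± 1.08), Tnfsf13b (14.0 ± 3.38) and Tnfsf10 (6.17 ± 2.91 normalized counts per kilobase). Neighbors in this order had separate ranges except that Tnf overlapped with Tnfrsf1b and with Fas. In KE, Tnfrsf1a (1698 ± 85.6) and Tnfrsf12a (1262 ± 91.4) again led, followed by Fas (457 ± 25.5), Tnfrsf10b (293 ± 12.6) and Tnfrsf1b (246 ± 24.4). Tnf moved from position 4 to position 9, with 28.6 ± 6.34 per kilobase, and Tnfsf10 from position 10 to position 7, with 60.3 ± 3.59. Per kilobase of the longest transcript instead, Tnf was at position 5 in NT, behind Fas, and Tnfsf10 at position 6 in KE, ahead of Tnfsf9. On that scale Tnfrsf1a and Tnfrsf12a were close to each other in KE (2284 and 2235), and Tnfrsf10b was at 525. The level of Tnfrsf12a carries the uncertainty of its overlap with Hcfc1r1. The ranges of Tnfsf9 (62.5 ± 0.652), Tnfsf10 and Tnfrsf11b (57.6 ± 6.80) overlapped between neighbors in KE, and Tnfsf13b was the lowest at 4.08 ± 0.611. Among these 10 genes, the 2 with the highest level per exon length were thus receptors in both groups.

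**Figure D3:**
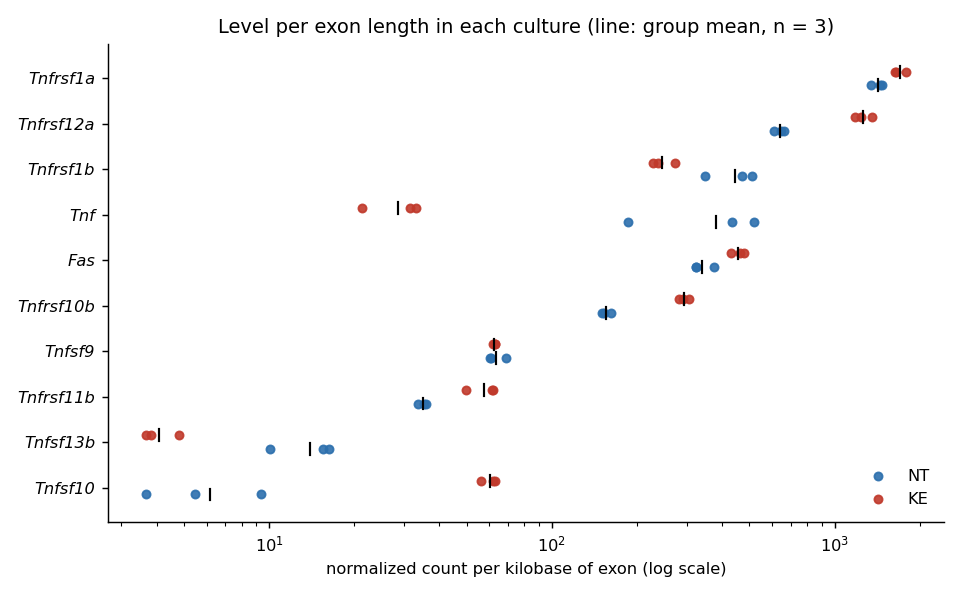
The normalized count per kilobase of exon (x axis, log scale) of the 10 genes is shown for each culture, ordered by the NT mean, with a line at the group mean. Tnfrsf1a and Tnfrsf12a are highest in both groups, while Tnf moves from 380.3 to 28.6 and Tnfsf10 from 6.17 to 60.3.

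The 3 downregulated genes, Tnf, Tnfsf13b and Tnfrsf1b, fell beside the microglia markers and not by equal amounts. The median log2FC of the 20 markers was -3.35, ranging from -4.66 for Mrc1 to -0.88 for P2ry12, and the log2FC of Tnf (-3.60) was close to that median, whereas those of Tnfsf13b (-1.72) and Tnfrsf1b (-0.83) were closer to 0. NT replicate 3 was also the lowest NT culture for the summed markers, at 0.804 times the mean of the other two, compared with 0.389 for Tnf, 0.634 for Tnfsf13b and 0.709 for Tnfrsf1b, but also 0.495 for Tnfsf10. Which cells carried these transcripts was not measured, and the part of the microglia markers in the decreases was not tested. Likewise, the astrocyte markers rose by 0.44 on the log2 scale of their summed means, while Tnfrsf1a rose by 0.26 and Fas by 0.42, and the part of that rise in these increases was not tested.

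**Figure D4:**
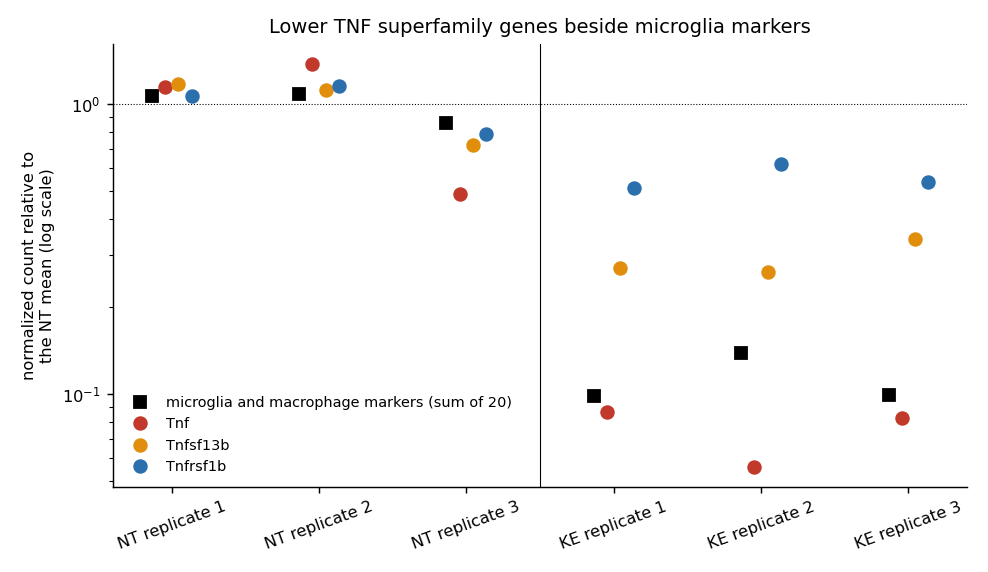
Normalized counts of Tnf, Tnfsf13b, Tnfrsf1b and the sum of 20 microglia and macrophage markers are given for each culture relative to the NT mean (y axis, log scale). In the 3 KE cultures Tnf lies below the marker sum, whereas Tnfsf13b and Tnfrsf1b lie above it.

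The genes whose pattern over the 6 cultures was most like that of Tnfsf10, by the root mean square difference of centered log2 values among 15270 genes, were Ptgs2 (0.19), Ifit1 (0.20) and Isg15 (0.21). Ptgs2 encodes a prostaglandin synthase, and Ifit1 and Isg15 are interferon-stimulated genes, with log2FC of 3.46, 3.47 and 3.19 in that order. A similar log2FC follows from this measure, because the difference between KE and NT dominates it for a gene picked for its large change. Shared regulation was not tested. For Tnf the most similar genes were Tnip3 (0.15), Milr1 (0.16) and Mcoln2 (0.20), with log2FC of -3.53, -3.73 and -3.83. The KE values of Tnip3 (11.1 to 14.3) and Mcoln2 (7.38 to 10.6) rest on few reads.

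Promoter sequences were available for 7 of the 10 genes from RefSeq (GRCm38.p6, 250 bases before to 50 after the start site), 8 windows in all because Tnfsf13b has a pair of start sites, and there was no entry for Tnfrsf10b, Tnfrsf11b and Tnfsf9. Shown are those of the gene with the largest increase, the gene with the largest decrease, and the 2 other downregulated genes. Both of these other genes held letters of an interferon-stimulated response element (ISRE). For Tnfsf13b only the downstream window held them, and only that window is shown. Each sequence is written in the direction of transcription, with matches to any searched motif in capitals.
Tnfsf10 (chr3:27316827-27317126, plus strand): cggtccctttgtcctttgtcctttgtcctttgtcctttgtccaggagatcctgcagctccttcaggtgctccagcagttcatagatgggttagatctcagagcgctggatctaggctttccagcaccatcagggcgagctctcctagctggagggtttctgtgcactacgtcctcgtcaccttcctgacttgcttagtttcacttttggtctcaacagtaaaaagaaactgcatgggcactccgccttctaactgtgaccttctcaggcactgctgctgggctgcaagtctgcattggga
Tnf (chr17:35201958-35202257, minus strand): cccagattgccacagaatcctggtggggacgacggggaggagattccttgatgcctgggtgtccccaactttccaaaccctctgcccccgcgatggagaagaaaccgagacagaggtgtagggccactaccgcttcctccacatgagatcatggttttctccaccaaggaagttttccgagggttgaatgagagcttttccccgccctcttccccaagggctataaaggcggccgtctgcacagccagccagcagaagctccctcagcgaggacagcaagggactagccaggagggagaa
Tnfrsf1b (chr4:145246821-145247120, minus strand): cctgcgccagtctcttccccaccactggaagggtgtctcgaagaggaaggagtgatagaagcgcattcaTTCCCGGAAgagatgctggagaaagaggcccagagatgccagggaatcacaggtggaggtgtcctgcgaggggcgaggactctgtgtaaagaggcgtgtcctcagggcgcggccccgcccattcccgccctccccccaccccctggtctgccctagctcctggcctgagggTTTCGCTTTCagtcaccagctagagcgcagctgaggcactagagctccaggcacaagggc
Tnfsf13b, downstream start site (chr8:10006383-10006682, plus strand): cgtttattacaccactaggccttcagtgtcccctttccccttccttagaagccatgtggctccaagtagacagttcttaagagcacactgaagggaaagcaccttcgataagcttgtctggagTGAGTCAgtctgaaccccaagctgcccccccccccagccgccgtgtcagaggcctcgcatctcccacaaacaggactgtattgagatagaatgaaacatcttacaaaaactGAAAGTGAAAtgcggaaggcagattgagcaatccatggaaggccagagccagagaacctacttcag

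The motifs searched on both strands were TTTC, any 2 bases and TTTC (ISRE letters), TTCNNNGAA (GAS letters, bound by STAT dimers), GGG, any 2 bases and TTTCC (NF-κB letters) and TGANTCA (AP-1 letters), and no matches overlapped each other in these windows. ISRE letters were found in 2 of the 7 genes, as TTTCGCTTTC in Tnfrsf1b and as GAAAGTGAAA in Tnfsf13b. The upstream window of Tnfsf13b held no ISRE letters. Of all 32851 promoters of this length, counted by window and not by gene, 3.44% held them. GAS letters were found in 3 of the 7, namely Tnfrsf1a (TTCCGTGAA), Tnfrsf1b (TTCCCGGAA) and Fas (TTCTGGGAA), and in 8.30% of all promoters. AP-1 letters were found in 2 of the 7, Fas and Tnfsf13b, as TGAGTCA, and in 7.81% of all. NF-κB letters were found in none of the 7 and in 1.63% of all. The windows of Tnfsf10, Tnf and Tnfrsf12a held none of the 4 motifs, which says only that these letters are not within these 300 bases.

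Among 14 other ligands of the family, 7 passed the filter, of which 3 were upregulated and 1 was downregulated, a share of calls near the 51.3% of all tested genes. The upregulated ligands were Cd70, Tnfsf13 (which encodes APRIL) and Tnfsf12, which encodes TWEAK, the ligand of Fn14. Tnfsf12 rose from 383 ± 28.0 to 473 ± 28.3 (SD, n = 3), a log2FC of 0.30 (adjusted p = 0.0215 from limma). Tnfsf11, the RANKL gene, fell, with a log2FC of -0.54 (adjusted p = 0.0235 from limma). These calls were close to the threshold, since without KE replicate 1 or without NT replicate 1 none of the 4 genes was called, and without KE replicate 2 only 1 was. Tnfsf12 and Tnfsf13 also share exons with the read-through gene Tnfsfm13, so the division of their reads is uncertain. Fasl, the ligand of Fas, was 3.08, 1.70 and 11.5 in KE and 0.675, 0 and 0 in NT, and it was too low to be tested, as was Lta at 0 in all KE cultures and 0.99, 2.07 and 0.955 in NT.

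Of 22 other receptors, 14 were tested, with 6 upregulated and 4 downregulated (25.3% and 26% of all tested genes) and a median log2FC of 0.08. The largest decreases among them were those of Tnfrsf13b (-3.26), which encodes the BAFF and APRIL receptor TACI, and Tnfrsf11a (-2.96), which encodes RANK. Both values were close to the median log2FC of the 20 microglia and macrophage markers (-3.35), whose part in these decreases was not tested. Tnfrsf13b was 9.94, 30.0 and 6.70 in KE and 136, 144 and 115 in NT. Tnfrsf11a averaged 32.8 ± 7.36 in KE and 258 ± 22.2 in NT (SD, n = 3 each). Both were lower in every KE culture, as were Tnfrsf26 (-1.35) and Tnfrsf14 (-1.30). The other BAFF receptors, Tnfrsf13c and Tnfrsf17, averaged 3.24 and 0.302 in KE and 1.84 and 0 in NT. Upregulation was found for Cd40 (1.06), Ngfr (0.90), Tnfrsf23 (0.78), Eda2r (0.38), Tnfrsf19 (0.28) and Ltbr (0.21). The call of Ngfr was lost without any 1 of 5 of the cultures and that of Ltbr without any 1 of 4 (adjusted p up to 0.112 and 0.0808 from limma). Tnfrsf23 is a decoy receptor for TRAIL with a close paralog, Tnfrsf22 (-0.01, not called), and their division of reads is uncertain.

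Of 36 adaptors, kinases and caspases that act below the receptors, all of them tested, 7 were upregulated, 4 were downregulated and 25 were not called, where 51.3% of all tested genes were called. Their median log2FC was -0.01. Mlkl, which encodes the membrane-permeabilizing protein of necroptosis, rose most, from 302 ± 36.8 to 1300.0 ± 37.4 (SD, n = 3), which is a log2FC of 2.11 ± 0.10 (standard error, adjusted p of 3.42e-08 in limma). Daxx (1.10), Bid (0.82), whose product links caspase-8 to mitochondria, Rnf31 (0.71), Ikbkg (0.38) and Traf2 (0.36) were among the other upregulated genes. Traf1 (-1.27), Traf4 (-0.50) and Fadd (-0.22) were among the downregulated genes. Traf1 was 70.2, 60.2 and 70.9 in KE and 224, 227 and 85.1 in NT, again with NT replicate 3 apart from the other NT cultures. Other components of the death receptor complexes, namely Tradd (-0.15), Ripk1 (-0.07), Casp8 (-0.15) and the caspase-8 inhibitor Cflar (0.11), were not called. Fadd, the adaptor of Fas and the TRAIL receptor, lost its call without any 1 of 5 of the cultures (adjusted p up to 0.110 from limma).

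Of 20 chosen genes that NF-κB induces downstream of TNF, 17 were upregulated and 3 were not called, whereas 25.3% of all tested genes were upregulated. Downregulation was found for 0 of them in limma, also at an unadjusted p-value of 0.05. The median log2FC was 0.64. Il6, an inflammatory cytokine, rose most, being 479.8, 469 and 566 in KE and 119.9, 110.1 and 54.6 in NT, which is a log2FC of 2.48 ± 0.25 (standard error, adjusted p of 1.05e-05 in limma). It was followed by the neutrophil chemokines Cxcl1 (1.65) and Cxcl2 (1.63) and by Tnfaip3 (1.13), which encodes the feedback inhibitor A20. Nfkb1 (0.17), Sod2 (0.13) and Nfkbie (-0.09) were not called, and without 1 culture at a time 15 to 19 of the genes were upregulated. The calls of Tnip1 and Ccl20 were lost without any 1 of 5 and of 4 of the cultures (adjusted p up to 0.170 and 0.141 from limma). The list was chosen with earlier results of these data known, and it leaves out other NF-κB targets. Among those counted elsewhere, Tnf (-3.60) and Traf1 (-1.27) fell, Birc3 (0.01) was not called and Cd40 (1.06) rose. The counts therefore describe this list and not NF-κB targets in general.

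Of 12 genes listed for TNF protein release or Tnf mRNA control, 4 were upregulated and 3 were downregulated. This share of calls was near the 51.3% of all tested genes. Tnfaip8, which is counted among the 12, is instead known as a gene that TNF induces, and it was not called. Zfp36, which encodes tristetraprolin, a protein that destabilizes Tnf mRNA, was 497, 569 and 537 in KE and 397, 352 and 332 in NT, which is a log2FC of 0.57 ± 0.10 (standard error, adjusted p of 6.95e-04 in limma). Litaf (0.36), Rhbdf1 (0.23) and Zfp36l1 (0.21) were also upregulated. Mapkapk2 (-0.32), whose kinase product promotes TNF synthesis, and Elavl1 (-0.25) were downregulated. Adam17, which encodes the protease that sheds TNF, was slightly lower, at 4240.4 ± 91.1 against 4692 ± 132 (SD, n = 3), a log2FC of -0.15 (adjusted p = 0.0380 from limma) whose call was lost without any 1 of 4 of the cultures (adjusted p up to 0.105). Rhbdf1 lost its call without KE replicate 2 or NT replicate 1, and Zfp36l1 without NT replicate 2 (adjusted p up to 0.0982 and 0.0579 from limma).

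**Figure D5:**
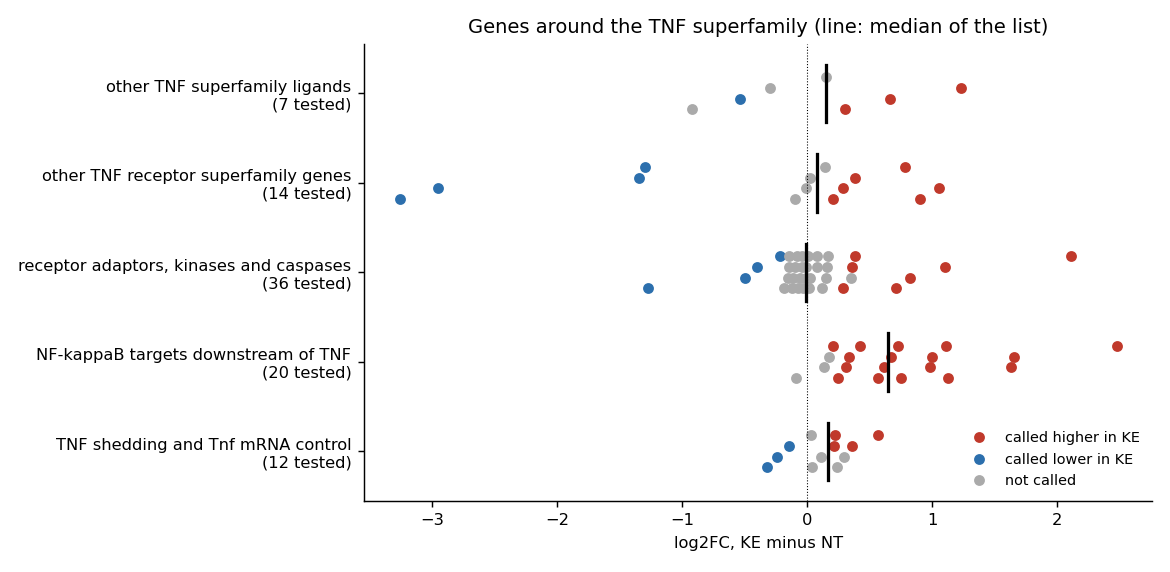
Each point is the log2FC (KE minus NT, x axis) of a tested gene of 5 lists around the TNF superfamily, colored by call, with a line at the median of the list. The 20 chosen NF-κB targets lie mostly above 0 with a median of 0.64, while 25 of the 36 adaptors, kinases and caspases are not called.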

How the data were processed

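RNA-Seq libraries (TruSeq stranded mRNA) of 3 KE and 3 NT cultures were analyzed, and no sample was left out. The methods describe reads trimmed with TrimGalore, aligned with STAR (GRCm39 with Gencode vM28 for mouse) and quantified with Salmon, and an adjustment for unnamed batches. They name hippocampus and spheroid samples for these steps, and astrocytes only for a fold change cutoff in the enrichment test. The submitters' processing notes list GRCh38, a human build, but the gene identifiers are those of the mouse. The authors deposited a normalized signal per gene and culture, gene counts divided by DESeq2 size factors. At most 70.5% of values under 100 lay within 0.1 of a whole multiple of 1 read, so reads were not recovered and no count test was run. The depth is therefore approximate.

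Genes averaging 10 or more in the deposited signal, 15280 in all, were tested in R 4.3.3 by limma 3.58.1, using log2(normalized count + 1), the group (KE or NT) and a trended variance. P-values are two-sided and adjusted by Benjamini-Hochberg over all tested genes, with a threshold of 0.05. The smallest two-sided p-value that exact permutation of 3 against 3 cultures allows is 0.1. The fits were tried on simulated data. There, the fit with the replicate number as a block missed an initial criterion on the share of changed genes called, and other criteria replaced it. Gene models came from Gencode vM39 on GRCm39, in which 54749 of 55357 identifiers, all 10 genes included, were found. Level per length is the normalized count per kilobase of the union of a gene's exons.

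The 10 genes and the lists were chosen with earlier results of these data known, so counts over them are descriptive. From each list, the 4 called genes with the largest absolute log2FC were named if they averaged 100 or more and their KE and NT ranges were separate, together with direct partners of the 10 genes. Other list genes given by value were named after their values were seen. Some genes of the lists are counted but not reported here by name. Genes most alike were the 3 nearest to the called gene with the largest rise and to the one with the largest fall. Alternatives were other pseudocounts, filters and scalings, limma without a trend, the replicate number as a block, leaving out each culture, and transcript length.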

Additional observations from a re-analysis of the deposited data

How the results depend on the processing

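The 9 called TNF superfamily genes kept their direction and stayed called under all 14 alternatives. Leaving out each culture gave -4.05 to -3.31 for Tnf, 3.04 to 3.69 for Tnfsf10, -1.93 to -1.59 for Tnfsf13b and -0.056 to 0.037 for Tnfsf9. Tnfsf9, never called, turned to 0.11 with quantile normalization and to 0.037 without NT replicate 3, and the cause was not tested. The number of genes called was 6776 to 7199 when 1 culture was left out and 8046 under a replicate block. Deviations from the group means correlated weakly between cultures that share a number (mean r of 0.063 across genes). Each such pair had a positive r (0.059 to 0.066). The mean for different numbers (-0.032) is largely fixed by centering on the group means, so it is no independent comparison. Whether cultures with the same number share a preparation was not tested, and the main fit did not pair them. The replicate block changed the call of none of the 10 genes. Scaling moved the median of all genes by at most 0.03. Small counts moved most. Among the other ligands, leaving out 1 culture gave 0 to 3 upregulated and 0 to 2 downregulated, and quantile normalization gave 0 downregulated. With a mean of at least 50, 2 of the other receptors were downregulated, since fewer genes were tested. Without a trend, 2 genes of TNF release and Tnf mRNA control were upregulated, and the cause was not tested. Per kilobase of the longest transcript in place of all exons, which is shorter by construction, KE and NT levels were 2284 and 1913 for Tnfrsf1a, 592 and 442 for Fas, 2235 and 1134 for Tnfrsf12a, 525 and 278 for Tnfrsf10b and 5.75 and 19.7 for Tnfsf13b, and Tnfsf10 in KE was 64.1. Low values, as of Tnfsf13b and of Tnfsf10 in NT, rest on few reads.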
